A study of Mus musculus with 41 samples.

Results

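CD106 positive and CD106 negative cells of the fetal mouse lung were compared by RNA sequencing, gene by gene, to describe the programme of each fraction. The 4 libraries, 2 of each fraction, were taken by their labels from 41 samples of the series, which deals with glucocorticoid control of lung maturation before birth. All 4 came from lung at E18.5, shortly before birth. The labels give them no treatment, strain or genotype, and call only the CD106+ cells sorted. How these fractions were prepared is not given in the sources used here. The protocol text describes a bead selection for CD106 after removal of CD45+, CD31+ and CD309+ cells only for accessibility libraries of the series. No label ties the 2 libraries of a fraction to different animals or litters, and the p-values here reflect only how far these libraries vary, which may be technical variation.

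CD106 is the protein of Vcam1, an immunoglobulin-family adhesion molecule that binds integrin alpha 4 beta 1 on other cells. In the lung it is carried by mesenchymal cells, among them the matrix fibroblasts, which lay down collagen and other matrix and make growth factors that act on the neighbouring epithelium. Fgf10, Wnt2 and the homeobox factor Meox2 are genes of the distal lung mesenchyme. In that tissue, fibroblast growth factors, Wnts and retinoic acid pass from mesenchyme or mesothelium to epithelium, and Sonic hedgehog passes the other way.

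The labels were checked first against Vcam1 (chr3:116110020-116129688, GRCm38.p6, RefSeq). It stood at 551 and 687 CPM, that is counts scaled to the same library total, in the CD106+ libraries. In the CD106- libraries it stood at 1.35 and 3.00 CPM. The log2 fold change of CD106+ over CD106- was 8.06 ± 0.43 (SE, n = 2 per fraction), with an adjusted p of 3.2e-12 in edgeR's quasi-likelihood test. Every library therefore matched its label for the sorted protein's own transcript. Fgf10, at 81.0 and 115 against 1.15 and 1.66 CPM, Meox2, at 127 and 208 against 0.577 and 1.66 CPM, and Wnt2, at 14.6 and 48.1 against 0.192 and 0 CPM, were each higher in both CD106+ libraries.

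The stretches of 250 bases before the start sites of 6 genes are shown because these marker genes and transcription or growth factors stand for the 2 sides of the comparison: 5 from the CD106+ side and Aldh1a2 from the CD106- side. They are RefSeq sequences of build GRCm38.p6, each 5′ to 3′ on its gene's strand. Capitals mark matches to the short motifs searched on both strands: the GC box with the letters GGGCGG, the CCAAT box named by its own letters, the TATA box with the letters TATAAA, the forkhead motif with the letters TGTTTNC and the NKX2-1 motif with the letters CTTGAG. The table of promoters used here holds no entry for Vcam1. The regions are chr13:118714449-118714698 (plus strand) for Fgf10, chr12:37108290-37108539 (plus) for Meox2, chr6:18030446-18030695 (minus) for Wnt2, chr10:22820144-22820393 (minus) for Tcf21, chrX:164373272-164373521 (plus) for Figf and chr9:71215539-71215788 (plus) for Aldh1a2.
Fgf10: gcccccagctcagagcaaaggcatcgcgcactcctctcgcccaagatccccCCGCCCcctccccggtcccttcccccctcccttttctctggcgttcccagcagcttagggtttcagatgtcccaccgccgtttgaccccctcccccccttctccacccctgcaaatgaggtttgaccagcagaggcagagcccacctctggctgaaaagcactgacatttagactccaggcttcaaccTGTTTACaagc
Meox2: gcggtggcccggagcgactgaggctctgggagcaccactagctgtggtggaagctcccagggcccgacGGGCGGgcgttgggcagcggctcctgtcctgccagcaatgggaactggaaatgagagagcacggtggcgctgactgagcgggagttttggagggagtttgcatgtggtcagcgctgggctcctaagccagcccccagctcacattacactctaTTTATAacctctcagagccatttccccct
Wnt2: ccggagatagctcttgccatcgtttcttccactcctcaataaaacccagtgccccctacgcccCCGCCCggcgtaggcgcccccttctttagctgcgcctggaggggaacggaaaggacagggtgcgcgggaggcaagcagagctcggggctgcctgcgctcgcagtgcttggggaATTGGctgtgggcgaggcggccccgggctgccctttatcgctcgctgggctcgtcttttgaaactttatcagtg
Tcf21: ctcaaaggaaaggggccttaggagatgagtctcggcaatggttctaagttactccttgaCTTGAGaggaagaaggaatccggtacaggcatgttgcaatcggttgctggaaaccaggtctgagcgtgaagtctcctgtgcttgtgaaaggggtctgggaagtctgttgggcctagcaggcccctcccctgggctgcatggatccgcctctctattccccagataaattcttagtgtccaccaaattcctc
Figf: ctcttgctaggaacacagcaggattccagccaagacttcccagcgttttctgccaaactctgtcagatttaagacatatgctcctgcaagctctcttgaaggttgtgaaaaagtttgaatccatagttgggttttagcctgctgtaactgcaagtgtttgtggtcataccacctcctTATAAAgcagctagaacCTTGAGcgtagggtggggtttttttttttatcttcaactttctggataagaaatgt
Aldh1a2: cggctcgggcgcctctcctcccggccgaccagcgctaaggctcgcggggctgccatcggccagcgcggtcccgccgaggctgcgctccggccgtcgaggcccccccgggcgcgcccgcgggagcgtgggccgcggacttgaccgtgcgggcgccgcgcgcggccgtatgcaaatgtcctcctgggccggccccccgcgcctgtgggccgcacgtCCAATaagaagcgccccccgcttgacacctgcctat

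Positions of matches are counted back from the annotated start, the base before it being -1. Fgf10, which codes for a growth factor for lung epithelium, had the forkhead letters at -11 and a GC box at -199. Meox2 had TATA box letters on the opposite strand at -29, and Wnt2 had CCAAT letters on the opposite strand at -74. Figf, the gene of the lymphatic growth factor VEGF-D, had TATA letters at -73 and the NKX2-1 letters at -56. Tcf21, a mesenchymal transcription factor, had the NKX2-1 letters at -191, and Aldh1a2 had CCAAT at -36. Of all 7803 promoters of tested genes over the same 250 bases, 12.7% held the forkhead letters, 61.8% the GC box, 6.18% the TATA box, 37.5% CCAAT and 12.0% the NKX2-1 letters. The GC content of these stretches ran from 42.4% in Figf to 77.6% in Aldh1a2.

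Total counts ran from 4987175 to 7133941 a library, with 14681 to 15695 genes counted. Across 12364 tested genes the 2 CD106- libraries correlated at r = 0.955 (Pearson, log2 CPM), the 2 CD106+ libraries at 0.932 and libraries of different fractions at 0.848 to 0.897. These are correlations across genes, which are not independent. The first CD106+ library stood apart in muscle transcripts. Ttn, the giant spring protein of striated muscle, was at 3186 CPM there and at 45.4 CPM in CD106+ library 2, and cardiac actin Actc1 was at 580.3 CPM there and between 16.0 and 51.7 CPM in the others. Among genes with a mean of at least 20 CPM in a fraction, 8.39% of 6959 differed more than 2-fold between the CD106+ libraries, compared with 1.44% of 6472 between the CD106- libraries. The ribosomal precursor Rn45s took 2.86% of the second CD106+ library and 0.902% to 1.21% of the others.

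Genes were called at a Benjamini-Hochberg adjusted p under 0.05. Of the 12364 genes tested, 1239 were called (10.0%). These comprised 825 genes higher in CD106+ cells (6.67%) and 414 lower there, that is higher in CD106- cells (3.35%). The sides differed in size. Among the calls, 548 genes were higher by a log2 fold change of 2 or more, and 44 were lower by as much. The median log2 fold change was 2.53 for the higher calls, -1.21 for the lower calls and 0.0463 for all genes tested. For 156 genes higher in CD106+ cells the CD106- mean was under 1 CPM, while 11 genes lower in CD106+ cells had a CD106+ mean under 1 CPM. Without CD106- library 1 the counts were 464 higher and 82 lower, and without CD106- library 2 they were 607 and 79. Without CD106+ library 1 they were 1432 and 1324, and without CD106+ library 2, 834 and 468. Of the 1239 calls, 386 held whichever library was left out, 353 of them higher and 33 lower. With 1 CD106- library the spread is estimated from the CD106+ pair alone, and a call lost there need not have a smaller difference. The median log2 fold change of the lower calls was -1.25 without CD106- library 1 and -1.20 without CD106- library 2, compared with -1.21 with all libraries, and each of the 413 lower genes that could be fitted there stayed negative. Of 1034 list and pair genes in the table, 809 passed the filter on low counts and were tested, and counts of list members below refer to tested ones. A gene can pass that filter through 1 fraction alone. Counts of called list members are to be read beside the shares over all genes tested, 6.67% higher and 3.35% lower. Below, a call that was lost when 1 library was left out is given with the adjusted p of that edgeR fit. Programme list genes are named mainly by smallest p, so their kept calls do not speak for a whole list.

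**Figure D1:**
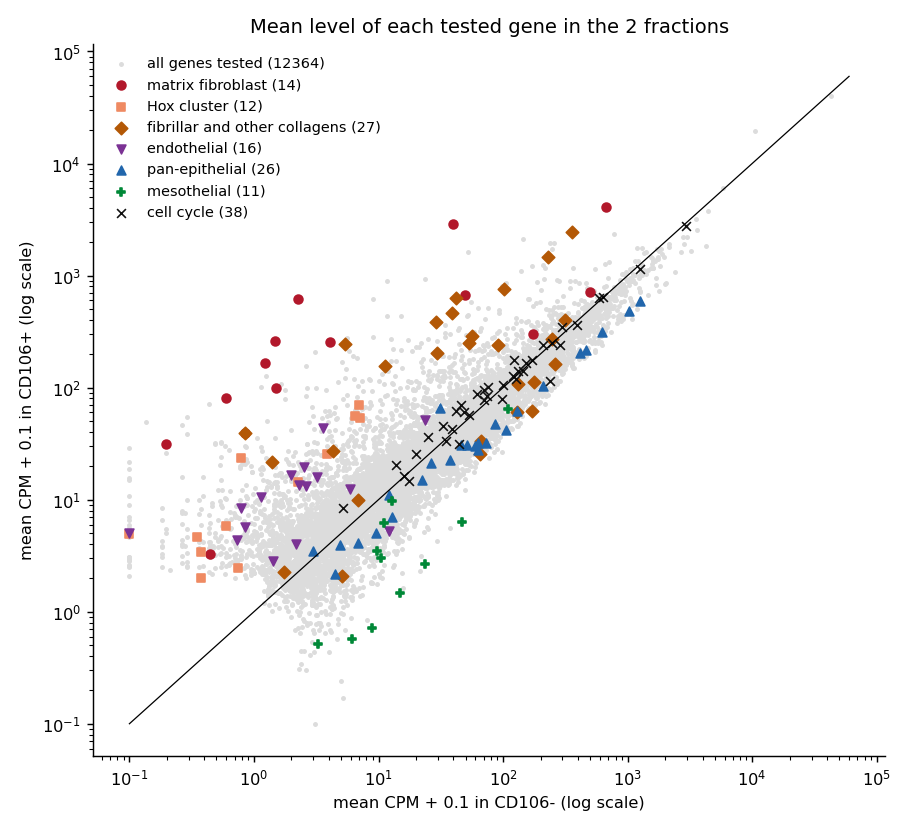
Mean CPM plus 0.1 of each tested gene in the CD106- fraction (x axis) and the CD106+ fraction (y axis), both log scales, n = 2 libraries each, with 7 gene lists marked by colour and shape and a line of equal level. Matrix fibroblast genes such as Vcam1 (means 619 and 2.17 CPM) lie far above the line, cell cycle genes on it, and pan-epithelial and mesothelial genes mostly below it.

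Markers of matrix fibroblasts were almost wholly on the CD106+ side. Of 14 tested markers, 11 were higher, with a median log2 fold change of 5.97 compared with 0.0463 over all genes tested. The summed CPM of the list was 8094 and 12340 in the CD106+ libraries, and 1297 and 1591 in the CD106- libraries. Vcam1, whose protein defines the fractions, is one of these markers. Without it 10 of 13 tested markers were higher (median 5.91), and the sums were 7543 and 11650.0 against 1295 and 1588 CPM. The remaining markers too were chosen with earlier results of these data known, so these counts describe the list and are not independent support. In bulk RNA, fewer cells of a type and less RNA per cell cannot be told apart. Figf was at 187 and 332 CPM in CD106+ cells and at 1.92 and 0.832 CPM in CD106- cells (log2 fold change 7.51 ± 0.43, edgeR adjusted p 1.7e-11). Itga8, the integrin subunit that binds nephronectin, was at 213 and 298 against 2.31 and 5.66 CPM. Its values were 5.91 ± 0.39 on the log2 scale, with an edgeR adjusted p of 3.7e-10. Tcf21 was at 36.9 and 123 CPM against 0 and 0.999 CPM. For these 3 genes even the lower CD106+ library lay far above the higher CD106- library. Col13a1, a transmembrane collagen, was at 29.1 and 49.1 against 0 and 1.50 CPM. Gyg, which primes glycogen synthesis, was at 562 and 780 against 61.2 and 37.1 CPM. Macf1, a cytoskeletal linker, was at 3992 and 4140 against 591 and 740 CPM, a call lost without CD106- library 1 (edgeR adjusted p 0.055). The 3 markers not called were Npnt, at 554 and 867 against 440.3 and 567 CPM, Limch1 and Slc7a10.

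**Figure D2:**
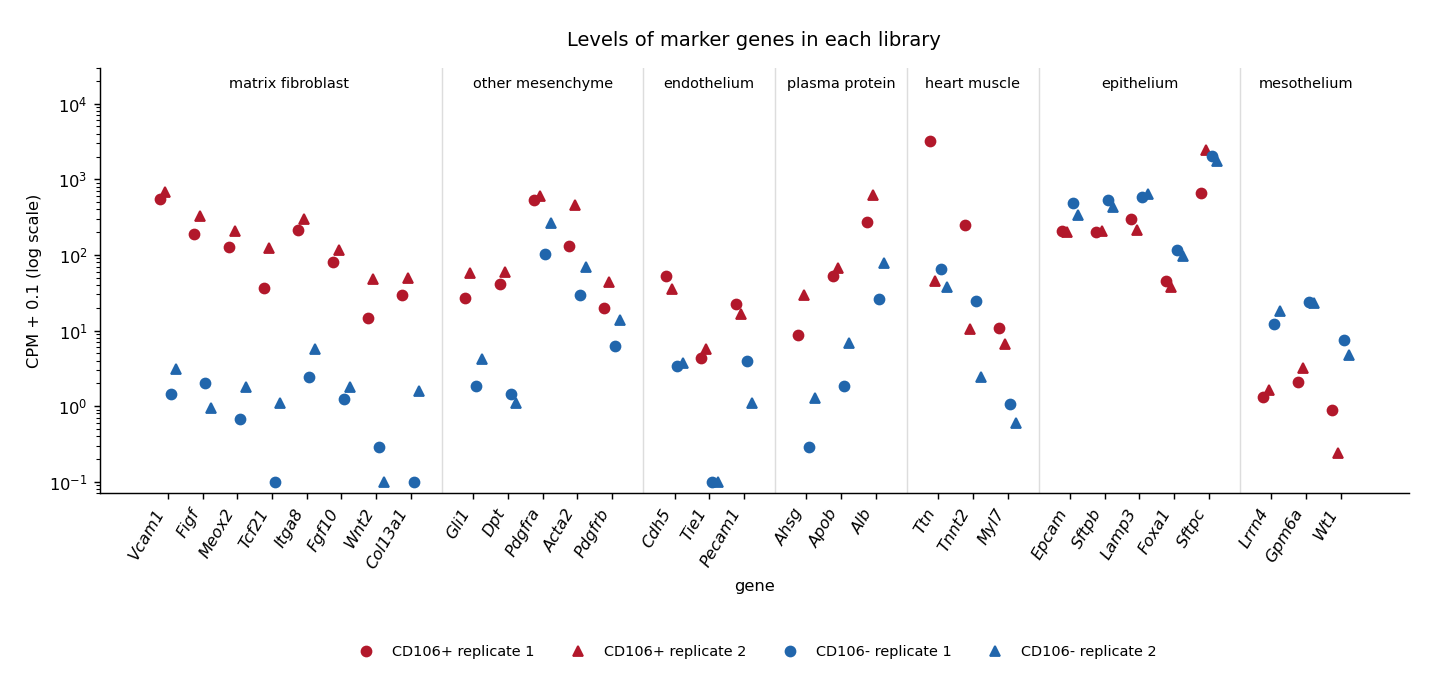
CPM plus 0.1 of selected genes in each of the 4 libraries on a log scale, CD106+ and CD106- libraries in different colours and 1 point per library. Vcam1 is at 551 and 687 CPM in CD106+ cells and at 1.35 and 3.00 CPM in CD106- cells, whereas the epithelial gene Epcam differs only from 205 and 198 to 492 and 341 CPM.

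The genes with the widest difference were mostly low in absolute level. By rule the 15 widest in each direction with a mean log2 CPM of 3 or more are considered. In the CD106+ direction they included Cmklr1, the chemerin receptor, at 28.1 and 81.4 against 0.385 and 0 CPM (log2 fold change 8.02 ± 0.76, edgeR adjusted p 7.2e-07). Gja5, connexin 40, was at 14.8 and 37.0 against 0.192 and 0 CPM, and the amino acid transporter Slc38a5 was at 45.5 and 96.7 against 0 and 0.666 CPM. The lipid transporter Abca8a was at 49.1 and 44.0 against 0 and 0.333 CPM. In the CD106- direction the widest included Lrrn4, Gpm6a and Aldh1a2, given below. Macc1 was at 6.82 and 4.21 against 33.1 and 41.4 CPM, and Npy2r at 4.21 and 4.21 against 30.0 and 29.3 CPM. The rule takes only called genes whose fractions do not overlap, so the wide gap in all these genes follows from their selection. No count, read as a sum under 0.001 of an estimated count, was found in the CD106- libraries for 12 genes with at least 20 counts in each CD106+ library, and no gene showed the opposite pattern. Against a floor of 3 counts over the CD106- group, 0.268 CPM, Cass4, a docking protein of focal adhesions, was at least 86.6-fold higher. Srpx2, an extracellular sushi-repeat protein, was at least 75.2-fold higher, and Epha5, an ephrin receptor, at least 57.3-fold higher. Pcolce2, which enhances procollagen processing, was at least 42.8-fold higher. Tmem252, a transmembrane protein, was at 25.7 and 5.24 CPM in CD106+ cells, 51.0-fold over the floor. Its estimated counts were not whole in any of the 4 libraries, so its bound is uncertain beyond counting error. A floor of 3 counts in each library lowered these bounds to 39.8 for Cass4, 34.5 for Srpx2, 27.9 for Epha5, 28.7 for Tmem252 and 19.9 for Pcolce2.

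Other mesenchymal types were less one-sided. Of 8 tested adventitial fibroblast markers, 5 were higher and 1 was lower (median 2.30). Dpt, dermatopontin, was at 41.1 and 59.6 against 1.35 and 0.999 CPM (log2 fold change 5.36 ± 0.49, edgeR adjusted p 1.9e-08). Cd34, a surface sialomucin, was at 20.3 and 30.4 against 3.08 and 2.66 CPM. The lower marker was Col15a1, at 63.4 and 56.8 against 144 and 113 CPM, a call lost without CD106- library 1 (edgeR adjusted p 0.23) or 2 (0.053). Among 9 lipofibroblast markers, 3 were higher: Zfp423, a preadipocyte factor, at 35.1 and 74.6 against 6.92 and 6.33 CPM, Apoe, an apolipoprotein, at 9.83 and 33.6 against 3.46 and 0.832 CPM, and the lipid droplet coat gene Plin2. Plin2 was at 27.7 and 90.8 against 12.7 and 12.2 CPM and lost its call without CD106+ library 2 (edgeR adjusted p 0.054).

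Contractile and mural markers were either higher in CD106+ cells or not called, and none was called lower. Of 13 myofibroblast markers 5 were higher (median 1.05), of 12 smooth muscle markers 2 (median 1.28) and of 11 pericyte markers 3 (median 0.275). When CD106- library 1 was left out these counts were 1, 1 and 0, and without CD106- library 2 they were 7, 3 and 3. They were 6, 6 and 3 without CD106+ library 1, and 5, 4 and 4 without CD106+ library 2. Pdgfra, the receptor that marks alveolar myofibroblast precursors, was at 526 and 608 against 102 and 265 CPM. Its log2 fold change was 1.56 ± 0.38 (edgeR adjusted p 0.012), and the call was lost without CD106- library 1 (0.46), CD106+ library 1 (0.40) or CD106+ library 2 (0.34). Acta2, smooth muscle actin, was at 132 and 457 against 29.6 and 70.1 CPM and was not called (edgeR adjusted p 0.21). Myh11, the heavy chain of mature smooth muscle, was at 129 and 152 against 89.6 and 181 CPM, with overlapping fractions (0.997). Mylk, myosin light chain kinase, was at 848 and 1012 against 146 and 281 CPM, a call lost without CD106- library 1 (0.12). The pericyte gene Pdgfrb was at 19.7 and 44.0 against 6.16 and 13.6 CPM, with its call lost without CD106- library 1 (0.43) or CD106+ library 2 (0.20). Cspg4, the NG2 proteoglycan of pericytes, was at 15.0 and 35.0 against 23.3 and 18.48 CPM and was not called (0.87). Each of these 6 genes either was not called or lost its call when a single library was left out. Other members were firmer. With all libraries, a test against a log2 fold change of 1 still called 1 myofibroblast, 2 smooth muscle and 0 pericyte markers higher.

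Mesothelial markers were the clearest group on the CD106- side. Of 11 tested, 5 were lower in CD106+ cells (median -2.95), and their summed CPM was 70.4 and 124 in CD106+ and 272 and 243 in CD106- libraries. Aldh1a2, which makes retinoic acid, was at 6.02 and 6.45 CPM in CD106+ and at 47.7 and 45.9 CPM in CD106- libraries (log2 fold change -2.95 ± 0.39, edgeR adjusted p 7.2e-06). Gpm6a, a membrane glycoprotein, was at 2.01 and 3.08 against 24.0 and 23.0 CPM. Lrrn4, a leucine-rich repeat protein of mesothelium, was at 1.20 and 1.54 against 11.9 and 17.8 CPM. None of these 3 genes lost its call in a leave-one-out fit. Bnc1, basonuclin 1, was at 0.401 and 0.841 against 6.54 and 11.2 CPM, a call lost without CD106- library 2 (edgeR adjusted p 0.12). Wt1, the Wilms tumour factor, was at 0.802 and 0.140 against 7.31 and 4.66 CPM, and its call was lost without CD106- library 1 (0.21) or CD106+ library 2 (0.060). Mesothelin, Msln, stood at 1.40 and 5.33 against 9.04 and 10.3 CPM without a call (0.15).

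Epithelial transcripts were lower in CD106+ cells but not absent. Of 26 pan-epithelial markers 13 were lower and 1, Prom1, was higher (median -0.972). The list summed to 2423 and 2378 CPM in CD106+ libraries and 5097 and 4543 CPM in CD106- libraries, so the CD106+ level was 49.8% of the CD106- level. Epcam, the epithelial adhesion molecule, was at 205 and 198 against 492 and 341 CPM (log2 fold change -1.08 ± 0.29, edgeR adjusted p 0.015). Cdh1, E-cadherin, was at 607 and 574 against 1166 and 1327 CPM, and Nkx2-1, the master factor of lung epithelium, at 364 and 269 against 708 and 527 CPM. The fractions did not overlap in these 3 genes, which was so for all 825 higher and all 414 lower calls. Without CD106- library 1 none of the 26 markers was called lower by edgeR, and without CD106- library 2 there were 2. Without library 1 and without library 2 in turn, Epcam had adjusted p-values of 0.45 and 0.096, Cdh1 0.25 and 0.48, and Nkx2-1 0.56 and 0.23. Their log2 fold changes in these fits were -0.85 and -1.30 for Epcam, -1.26 and -0.99 for Cdh1 and -0.82 and -1.16 for Nkx2-1. Nkx2-1 was also not called by edgeR without robust estimation (0.052). Without CD106+ library 1 or 2, 13 or 15 of the 26 were lower. Prom1, a stem and progenitor surface protein, was at 47.1 and 84.5 against 37.1 and 25.5 CPM, its call lost without CD106- library 1 (0.17), CD106- library 2 (0.56) or CD106+ library 2 (0.28).

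The alveolar epithelium showed the same order of size. For alveolar type 2 cells, which make surfactant, 8 of 14 markers were lower in CD106+ cells (median -0.979). Sftpb, a surfactant protein, was at 199.7 and 210.0 against 529 and 437 CPM, and Lamp3, a lamellar body protein, was at 301 and 211 against 591 and 636 CPM. Sftpc, the surfactant protein by which type 2 cells are best known, was at 665 and 2458 against 2044 and 1731 CPM, overlapped and was not called (edgeR adjusted p 0.76). For alveolar type 1 cells, the flat cells of gas exchange, 3 of 11 markers were lower (median -0.740): Clic5, Akap5 and Gprc5a. Clic5, a chloride channel family protein, was at 192 and 127 against 327 and 389 CPM. Hopx, a type 1 homeodomain protein, was at 47.1 and 53.0 against 79.8 and 76.7 CPM without a call (0.14). Without CD106- library 1 or 2, none of the type 2 or type 1 markers was called lower by edgeR. Sftpb then had adjusted p-values of 0.16 and 0.067, Lamp3 of 0.087 and 0.17, and Clic5 of 0.059 and 0.23. Akap5 had 0.24 and 0.35, and Gprc5a 0.14 and 0.55, besides 0.068 without CD106+ library 1. Without CD106+ library 1 or 2, 9 or 12 type 2 markers and 6 or 4 type 1 markers were lower. With all libraries, 9 type 2 and 7 type 1 markers were lower at an unadjusted p under 0.05, and DESeq2 called 9 and 2. Of 8 airway markers edgeR called none. One was higher at an unadjusted p under 0.05, and DESeq2 and limma-voom called 0. The secretory gene Scgb3a2 was at 37.1 and 49.6 against 37.9 and 46.8 CPM.

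**Figure D3:**
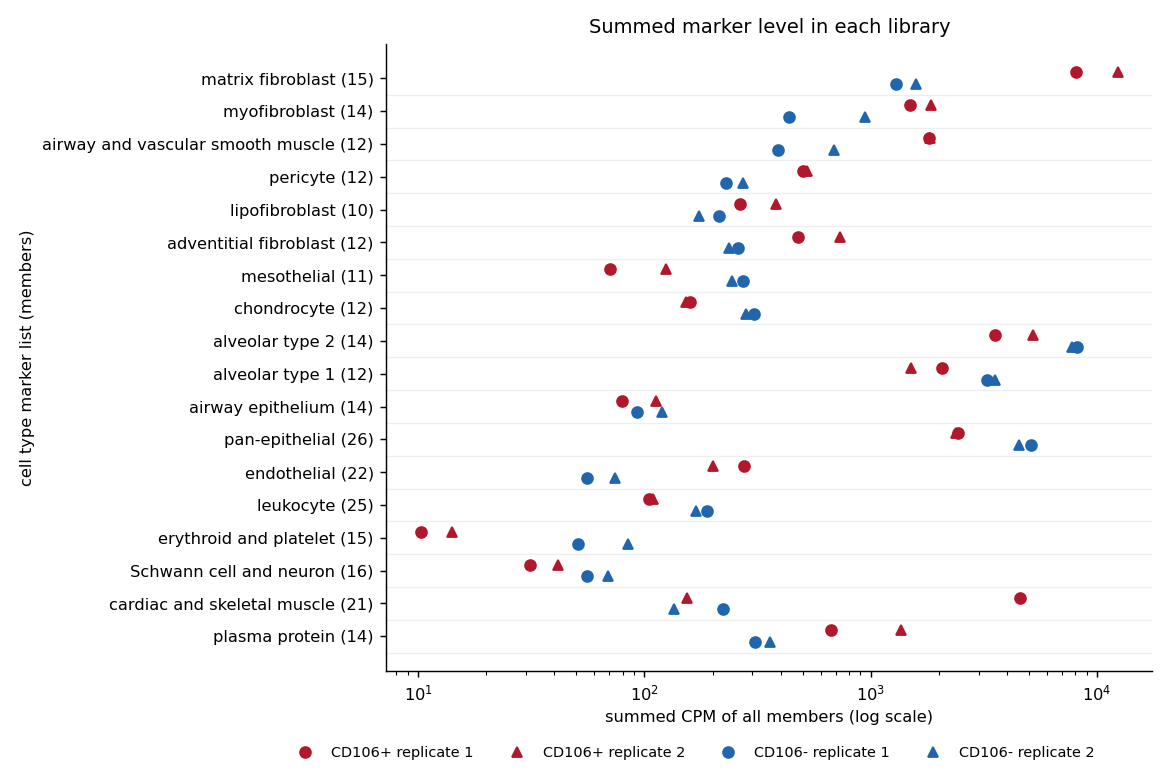
Summed CPM of each cell type marker list in each library, on a log scale, 1 point per library, CD106+ and CD106- libraries in different colours. Matrix fibroblast markers sum to 8094 and 12340 CPM in CD106+ against 1297 and 1591 CPM in CD106- libraries, mesothelial markers to 70.4 and 124 against 272 and 243 CPM, and muscle markers reach 4563 CPM in CD106+ library 1 alone.

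Some endothelial transcripts were on the CD106+ side. Of 16 tested markers 8 were higher (median 2.61), with a summed CPM of 275 and 201 in CD106+ against 55.6 and 73.7 in CD106- libraries. Cdh5, VE-cadherin, was at 52.3 and 35.0 against 3.27 and 3.66 CPM (log2 fold change 3.61 ± 0.45, edgeR adjusted p 2.7e-06). Eng, endoglin, was at 10.6 and 22.1 against 1.92 and 1.83 CPM. Tie1, an endothelial receptor kinase, was at 4.21 and 5.61 CPM with no count in CD106- libraries, at least 18.8-fold higher, or 9.12-fold with the floor of 3 counts in each library. These 3 calls held in every leave-one-out fit. Pecam1, the gene of CD31, was at 22.1 and 16.54 against 3.85 and 0.999 CPM, a call lost without CD106- library 2 (edgeR adjusted p 0.062). Kdr, the gene of CD309, was at 11.8 and 12.9 against 6.16 and 5.49 CPM and was not called (0.29). Cldn5, the claudin of endothelial junctions, was at 0 and 0.701 CPM in CD106+ libraries and at 0 in both CD106- libraries.

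Other cell types left small traces. Of 25 leukocyte markers 4 were tested, with 1 higher and 1 lower. Ptprc, the gene of CD45, was at 0 and 0.280 CPM in CD106+ libraries and at 0 in both CD106- libraries. Mrc1, the macrophage mannose receptor, was at 3.61 and 6.17 against 0 and 0.666 CPM, a call lost without CD106- library 1 (edgeR adjusted p 0.35) or CD106+ library 2 (0.21). Lcp1, L-plastin, was at 95.6 and 87.0 against 179.9 and 162 CPM, its call lost without CD106- library 1 (0.30) or 2 (0.22). All 5 tested erythroid genes were lower in CD106+ cells (median -2.88), such as Hba-a1, alpha globin, at 3.18 and 2.88 against 16.0 and 27.8 CPM. Without CD106- library 2 none of them was called lower by edgeR (Hba-a1 0.055). Globin copies share reads, and the values of Hba-a1 and Hba-a2 are uncertain. Sox10, the Schwann cell factor, was at 0 in all 4 libraries. Of 8 chondrocyte markers 2 were lower, Sox9 and Col9a3, both of which lost their calls without CD106- library 2 (0.058 and 0.092) and Col9a3 also without library 1 (0.46). The cartilage gene Col2a1 was at 15.0 and 4.91 against 26.9 and 16.0 CPM and was not called (0.22).

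Striated muscle markers rested on 1 library. Their 12 tested members had a median log2 fold change of 2.72, but only Myl7, an atrial myosin light chain, was called. Myl7 was at 10.6 and 6.59 against 0.962 and 0.499 CPM, and its call was lost without CD106- library 2 (edgeR adjusted p 0.080). The list summed to 4563 and 154 CPM in CD106+ libraries and to 223 and 135 CPM in CD106- libraries. Without CD106+ library 2, all 12 tested muscle markers were called higher in the remaining CD106+ library. Without CD106+ library 1 the count was 1. Plasma protein genes, which the liver makes in quantity, behaved otherwise: 12 of 13 were higher and 1 was lower (median 3.70), with 7 to 11 higher when 1 library was left out. Apob, the apolipoprotein of lipid export, was at 52.5 and 66.9 against 1.73 and 6.82 CPM (log2 fold change 3.71 ± 0.49, edgeR adjusted p 2.9e-05). Afp, alpha-fetoprotein, was at 109 and 238 against 5.39 and 19.5 CPM. Trf, transferrin, was at 72.4 and 179.8 against 27.7 and 30.6 CPM. These 3 kept their calls in every leave-one-out fit, and, as in every higher call, both CD106+ libraries were above both CD106- libraries. Other plasma protein genes were less firm. Alb, albumin, lost its call without CD106+ library 1 or 2 (log2 fold change 3.45 and 2.39). Apoa2, Fga, Fgb, Serpina1a and Ttr each lost theirs in at least 1 leave-one-out fit. With all libraries DESeq2 called 9 of the 13 higher and limma-voom 11. The part of muscle, plasma protein and blood transcripts in the other calls was not tested, but with their lists removed the counts were 817 higher and 413 lower.

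Collagens were mostly on the CD106+ side: 15 of 27 were higher and 4 lower, with a median log2 fold change of 2.14. The group summed to 7048 and 10690.0 CPM in CD106+ and to 2510.0 and 2754 CPM in CD106- libraries. Col25a1, a transmembrane collagen, was at 256 and 235 against 2.50 and 7.99 CPM (log2 fold change 5.47 ± 0.43, edgeR adjusted p 1.1e-07). Col23a1, also transmembrane, was at 106 and 207 against 9.81 and 12.5 CPM. Col6a2, a chain of the microfibrillar collagen VI, was at 294 and 636 against 29.8 and 48.3 CPM. All 3 were several-fold higher in both CD106+ libraries and kept their calls in every leave-one-out fit. Where 5 or fewer members of a list were called in 1 direction, members outside the naming rule are named too, chosen after their values were seen. The 4 lower collagens were the basement membrane chains Col4a3, Col4a4 and Col4a6, and Col15a1. Col4a3 was at 73.6 and 49.6 against 155 and 187 CPM (log2 fold change -1.51 ± 0.29, edgeR adjusted p 0.00090), a call that was kept. Col4a4 was at 32.7 and 18.4 against 67.1 and 64.3 CPM, with its call lost without CD106- library 1 (0.068) or 2 (0.064). Col4a6 lost its call without CD106- library 1 (0.48), CD106- library 2 (0.13) or CD106+ library 2 (0.15), and Col15a1 without CD106- library 1 (0.23) or 2 (0.053).

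Elastic fibre genes were higher for 11 of 21, with a median of 1.68. Mfap4, a microfibril-associated protein, was at 1462 and 4359 against 37.7 and 42.1 CPM (log2 fold change 6.11 ± 0.49, edgeR adjusted p 2.1e-08). Lox, which cross-links elastin and collagen, was at 1046 and 1365 against 114 and 228 CPM. Emilin1, an elastic fibre glycoprotein, was at 19.4 and 62.1 against 3.08 and 3.66 CPM. Mfap2, another microfibril protein, was at 9.62 and 36.0 against 1.92 and 1.50 CPM. These 4 genes kept their calls in every leave-one-out fit. Fbn1, fibrillin 1, was at 927 and 1393 against 148 and 285 CPM and lost its call without CD106- library 1 (0.055 in edgeR), and Eln, elastin itself and named after its values were seen, was at 171 and 329.8 against 52.5 and 95.9 CPM and lost its call in the same fit (0.14). The count of higher elastic fibre genes was 7 without CD106- library 1, 8 without CD106+ library 2 and 13 without CD106+ library 1. The single lower member was Efemp1, fibulin 3, at 28.9 and 23.7 against 68.1 and 54.3 CPM, a call lost without CD106- library 1 (0.24) or 2 (0.065).

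Proteoglycans and adhesive glycoproteins had 14 of 37 members higher and 1 lower (median 0.751), with 9 higher without CD106- library 1 and 4 lower without CD106+ library 2. Ogn, the small proteoglycan osteoglycin, was at 198 and 232 against 15.6 and 14.8 CPM (log2 fold change 3.77 ± 0.30, edgeR adjusted p 2.3e-09). Fn1, fibronectin, was at 1299.9 and 2622 against 239 and 274 CPM, and Bgn, biglycan, was at 1164 and 1336 against 160.2 and 260.2 CPM. Sparcl1, a matricellular protein, was at 352 and 632 against 68.3 and 116 CPM. In all 4 genes the CD106+ libraries were several times the CD106- libraries, and no call was lost when a library was left out. The lower member was Sdc4, a syndecan of cell surfaces, at 241 and 417 against 542 and 729 CPM, a call lost without CD106- library 1 (0.17 in edgeR) or 2 (0.66). Among 26 matrix proteases and inhibitors 10 were higher and 1 lower. Adamts17, a secreted metalloprotease, was at 216 and 328 against 24.8 and 25.3 CPM, and Adamts2, which trims procollagen, was at 47.1 and 121 against 7.50 and 15.0 CPM. The lower member, Adamtsl1, lost its call without CD106- library 1 (0.084) or 2 (0.28).

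Basement membrane genes were split between the fractions. Of 18 tested, 6 were higher and 5 lower, and the median was 0.0788, near that of all genes. Frem1, an epithelial-mesenchymal basement membrane protein secreted by mesenchyme, was at 762 and 1098 against 13.1 and 33.8 CPM (log2 fold change 5.23 ± 0.44, edgeR adjusted p 1.1e-07). Nid1, nidogen 1, was at 1619 and 1859 against 167 and 330.1 CPM, and Lama4, the laminin alpha 4 chain, at 345 and 523 against 30.2 and 73.1 CPM. These 3 calls held in every leave-one-out fit. Among the lower genes were Frem2, Lama3, Lama5 and Fras1. Frem2 and Fras1 code for partners of Frem1 at the same membrane, and Lama3 and Lama5 for laminin alpha chains. Frem2 was at 271 and 209 against 570.3 and 669.8 CPM, a call lost without CD106- library 2 (0.14 in edgeR). Fras1 lost its call without CD106- library 1 (0.31) or 2 (0.60). Lama3 was at 472 and 349.6 against 1005 and 1178 CPM and lost its call without CD106- library 1 (0.060) or 2 (0.18), as did Lama5 (0.14 and 0.26). Each of these 4 lower calls was thus lost without at least 1 CD106- library.

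Integrins were split in the same way, with 4 higher and 3 lower of 17 tested (median 0.113). Beside Itga8, the higher members were Itga1, a collagen receptor subunit, at 64.6 and 77.8 against 11.5 and 15.6 CPM, Itga5, a fibronectin receptor subunit, at 34.5 and 51.9 against 7.89 and 10.5 CPM, and Itgb5. Itgb5 lost its call without CD106- library 1 (edgeR adjusted p 0.10) or CD106+ library 2 (0.079). The lower members were Itga6, Itga3 and Itgb6, subunits of laminin receptors and of an epithelial integrin. Itga6 was at 146 and 122 against 279 and 329 CPM, a call lost without CD106- library 2 (0.19). Itga3 lost its call without CD106- library 1 (0.22) or 2 (0.16), and Itgb6 without CD106- library 1 (0.29), CD106- library 2 (0.13) or CD106+ library 2 (0.14).

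**Figure D4:**
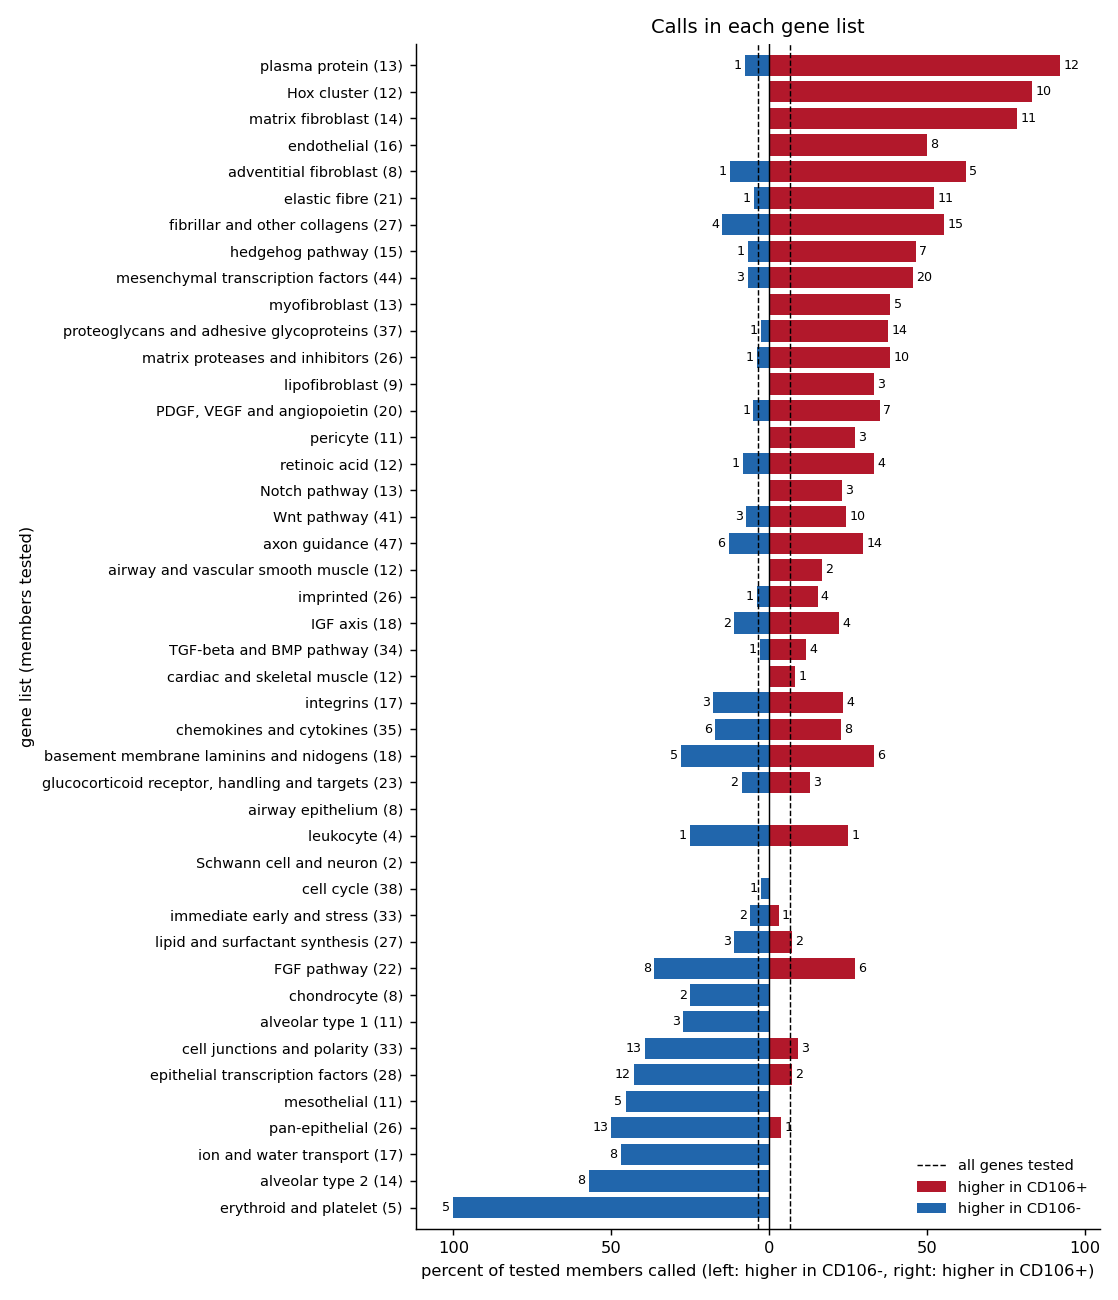
Number of genes called higher and lower in CD106+ cells as a share of the tested genes of each list, with the share over all genes (6.67% higher and 3.35% lower) drawn for comparison. Matrix fibroblast, Hox and plasma protein lists lie far on the CD106+ side, and epithelial, junction, ion transport, mesothelial and erythroid lists on the CD106- side.

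The FGF pathway had members on both sides, 6 of 22 higher and 8 lower (median -0.182). The ligand Fgf18 was at 22.9 and 36.3 against 25.8 and 41.6 CPM and was not called. Higher in CD106+ cells were the mesenchymal ligands Fgf10, described above, and Fgf7, keratinocyte growth factor, at 48.5 and 111 against 14.4 and 11.5 CPM (log2 fold change 2.56 ± 0.37, edgeR adjusted p 2.6e-05). Their receptor Fgfr2 was at 1418 and 745 against 2462 and 2323 CPM (-1.16 ± 0.37, adjusted p 0.048), a call lost without CD106- library 1 (0.41) or 2 (0.40), with a log2 fold change of -1.17 in both fits. Fgfr2 was also not called with RLE scaling (0.052), without robust estimation (0.083) or with Rn45s removed (0.051). Fgf9, a ligand made by epithelium and mesothelium, was at 28.7 and 17.9 against 84.4 and 69.9 CPM (-1.76 ± 0.33) and kept its call in every leave-one-out fit. Etv1, an ETS factor induced by FGF, was at 196 and 188 against 20.2 and 44.8 CPM, whereas the related Etv5 was at 562 and 548 against 1133 and 1074 CPM. The call of Etv5 was lost without CD106- library 1 (0.42) or 2 (0.42), at -1.04 in both fits. The feedback inhibitor Spry4 was at 39.7 and 64.1 against 6.92 and 13.5 CPM and kept its call. Its relatives Spry1 and Spry2 were called lower in CD106+ cells. Both calls were lost without CD106- library 1 (log2 fold change -1.09 and -0.96) or 2 (-0.73 and -0.98), and that of Spry2 also without CD106+ library 2 (-0.71). Thus ligands, targets and inhibitors of this pathway did not share 1 direction. Without CD106- library 1 or 2 the lower count was 2 or 1, and without CD106+ library 1 or 2 it was 9 or 5.

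Of 15 hedgehog pathway genes 7 were higher and 1 was lower (median 0.968). Gli1, a transcription factor that is itself a hedgehog target, was at 27.1 and 58.3 against 1.73 and 4.16 CPM (log2 fold change 3.76 ± 0.50, edgeR adjusted p 1.2e-05). Gli2 was at 26.9 and 77.7 against 2.50 and 6.49 CPM. The coreceptor Boc was at 45.1 and 104 against 7.50 and 9.49 CPM. The forkhead factors Foxf1, at 58.1 and 68.8 against 9.04 and 18.6 CPM, and Foxf2, at 74.2 and 111 against 8.46 and 18.48 CPM, are hedgehog targets in lung mesenchyme. All 5 kept their calls whichever library was left out. The ligand Shh was at 173 and 71.5 against 264 and 245 CPM and the receptor Ptch1 at 405 and 635 against 253 and 327 CPM, neither called (0.082 and 0.12). The lower member was the coreceptor Cdon, at 122 and 68.7 against 216 and 233 CPM, its call lost without CD106- library 2 (0.098).

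In the Wnt pathway 10 of 41 genes were higher and 3 lower (median 0.119), with 4 higher without CD106- library 1 and 5 lower without either CD106+ library. Sfrp1, a secreted Wnt inhibitor, was at 137 and 94.2 against 9.43 and 10.5 CPM (log2 fold change 3.50 ± 0.34, edgeR adjusted p 5.1e-08). Rspo2, which amplifies Wnt signals, was at 8.22 and 8.27 against 0 and 0.167 CPM, and Tcf7, a nuclear effector, was at 35.9 and 63.8 against 5.77 and 10.8 CPM. These calls held in every leave-one-out fit. Wnt5a, a non-canonical ligand, was at 117 and 103 against 24.8 and 49.6 CPM and lost its call without CD106- library 1 (0.24). The 3 lower genes were the receptors Fzd5 and Fzd6 and the ubiquitin ligase Rnf43. Fzd5 was at 81.0 and 50.6 against 162 and 176 CPM and kept its call. Fzd6 lost its call without CD106- library 1 (0.074) or 2 (0.16), as did Rnf43 (0.34 and 0.20). Receptors were on both sides. The Frizzled receptor Fzd1 was higher, at 347 and 402 against 125 and 129 CPM, and lost its call without CD106- library 1 (0.10) or 2 (0.056). Lgr4, an R-spondin receptor named after its values were seen, was at 17.4 and 13.3 against 3.27 and 4.49 CPM and lost its call in the same fits (0.31 and 0.11).

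Of 34 TGF-beta and BMP genes 4 were higher and 1 lower (median 0.142), with 4 lower without CD106+ library 1. With all libraries these were 11.8% higher and 2.94% lower, compared with 6.67% and 3.35% of all genes tested. Bmper, a secreted BMP regulator, was at 70.2 and 182 against 0.962 and 1.33 CPM (log2 fold change 6.67 ± 0.49, edgeR adjusted p 9.4e-09). Bmp5 was at 185 and 250.1 against 58.3 and 68.1 CPM, and both calls held whichever library was left out. Bmp3, a BMP antagonist, lost its call without CD106- library 2 (0.081), and Acvrl1, a receptor of endothelium, without CD106- library 1 (0.050) or CD106+ library 2 (0.19). The lower gene, Tgfbr1, lost its call without CD106- library 1 (0.13), CD106- library 2 (0.76) or CD106+ library 2 (0.058). Of 20 PDGF, VEGF and angiopoietin genes 7 were higher and 1 lower (median 0.867), with 4 to 6 higher and 0 to 2 lower when a library was left out. Angpt1, the activating ligand of the Tie2 receptor, was at 93.4 and 98.7 against 1.54 and 5.83 CPM (4.61 ± 0.45, adjusted p 9.4e-07) and kept its call. Angptl4, a secreted inhibitor of lipoprotein lipase, was at 8.22 and 28.2 against 3.08 and 1.50 CPM, a call lost without CD106+ library 2 (0.13). The lower gene was Pdgfa.

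In the insulin-like growth factor axis 4 of 18 genes were higher and 2 lower (median -0.206), and 2 and 1 without either CD106- library. The counts were 5 and 7 without CD106+ library 1, and 4 and 4 without CD106+ library 2. Igfbp4, a binding protein, was at 37.7 and 96.0 against 8.27 and 6.99 CPM (log2 fold change 3.06 ± 0.41, edgeR adjusted p 1.2e-05). The protease Htra3 was at 11.0 and 18.9 against 0.385 and 0.499 CPM. Pappa2, a protease that releases growth factor from binding proteins, was at 7.22 and 7.43 against 28.9 and 28.1 CPM. These 3 calls, in both directions, held in every leave-one-out fit. Igfbp5 was at 579 and 435 against 1181 and 1206 CPM, its call lost without CD106- library 1 (0.19) or 2 (0.25). Retinoic acid genes were called higher for 4 of 12 and lower for 1, Aldh1a2. Without CD106+ library 2 edgeR called none of the 12 higher, with adjusted p-values of 0.66 for Rbp4, 0.74 for Rarres2 and 0.32 for Rara. Notch genes had 3 of 13 higher, and Hey1, Maml2 and Notch2 all lost their calls without CD106- library 1 (0.081, 0.53 and 0.64) or 2 (0.33, 0.10 and 0.24).

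Guidance molecules, known from growing axons, included some of the widest differences. Of 47 tested, 14 were higher and 6 lower, with a median of 0.0479, close to all genes. Unc5c, a netrin receptor, was at 559.8 and 688 against 4.81 and 13.0 CPM (log2 fold change 6.05 ± 0.43, edgeR adjusted p 4.8e-09). Slit3, a secreted ligand of Robo receptors, was at 84.2 and 141 against 4.23 and 4.99 CPM (4.54 ± 0.37, adjusted p 2.8e-09). Nrcam, a neural adhesion molecule, was at 103 and 133 against 4.23 and 12.5 CPM, and Opcml, another surface adhesion protein, at 150.2 and 187 against 13.8 and 29.8 CPM. The semaphorin receptor Plxnc1 was at 141 and 165 against 16.2 and 28.5 CPM. All 5 kept their calls in each leave-one-out fit. Of the 6 lower genes, Sema3c, a secreted semaphorin, was at 59.6 and 47.8 against 124 and 123 CPM, a call lost without CD106- library 1 (0.057) or 2 (0.081). Without CD106- library 2 edgeR called none of the 47 lower, and without CD106+ library 1 it called 10 lower.

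Chemokine and cytokine genes had 8 of 35 higher and 6 lower (median -0.160). Without CD106- library 1 they were 4 and 1, and without CD106- library 2, 4 and 0. Without CD106+ library 1 or 2 they were 9 and 7 or 7 and 6. Ccl11, eotaxin, was at 58.3 and 101 against 0.385 and 3.00 CPM (log2 fold change 5.42 ± 0.56, edgeR adjusted p 5.7e-06). Cxcl12, a chemokine of stromal cells, was at 49.7 and 66.7 against 3.46 and 10.7 CPM. Both kept their calls in every leave-one-out fit. Tslp, an alarmin, was at 10.4 and 7.15 against 1.15 and 0.167 CPM, lost without CD106- library 2 (0.10). Tgfa, a ligand of the EGF receptor, was at 14.4 and 17.9 against 41.9 and 48.8 CPM, lost without CD106- library 2 (0.13). Il33, an alarmin of lung epithelium, was at 14.2 and 15.7 against 38.9 and 40.6 CPM, lost without CD106- library 1 (0.087) or 2 (0.15).

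Ligands and their receptors were then placed side by side for 39 pairs. Of 36 ligands tested 13 were higher and 6 lower, and of 35 receptors 13 were higher and 3 lower. Over all genes tested 6.67% were higher and 3.35% lower. The pairs were chosen with earlier results of these data known. Both genes were higher in CD106+ cells in 4 pairs: Angpt1 and Tek, Slit2 and Robo1, Slit3 and Robo2, and Rarres2 and Cmklr1. Slit2 was at 429 and 641 against 149 and 197 CPM and Robo2 at 171 and 213 against 26.0 and 68.1 CPM. Calls were lost without CD106- library 1 for Slit2 (edgeR adjusted p 0.19), Robo1 (0.35), Robo2 (0.068) and Rarres2 (0.14), and without CD106+ library 2 for Rarres2 (0.74). Tek, the Tie2 receptor, was at 16.2 and 15.7 against 4.04 and 2.16 CPM, lost without CD106- library 2 (0.17). Ligand and receptor lay on opposite sides in 4 pairs. Fgf10 and Fgf7 were higher and Fgfr2 lower, and Pdgfa and Sema3c were lower while Pdgfra and Plxnd1 were higher. Pdgfa was at 43.5 and 38.3 against 81.9 and 73.1 CPM, lost without CD106- library 1 (0.36), CD106- library 2 (0.25) or CD106+ library 2 (0.061). Fgfr2, which stands in 2 of these 4 pairs, lost its call in 5 of the edgeR fits given above, Sema3c lost its call without CD106- library 1 (0.057) or 2 (0.081), and Pdgfra without CD106- library 1 (0.46), CD106+ library 1 (0.40) or CD106+ library 2 (0.34). Plxnd1 was at 27.5 and 92.5 against 7.69 and 5.66 CPM and kept its call.

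Receptors of the other pairs were called in both directions. The 2 lower receptors besides Fgfr2 were those of hepatocyte and epidermal growth factor. Met was at 86.0 and 77.9 against 140 and 180 CPM, lost without CD106- library 1 (edgeR adjusted p 0.073) or 2 (0.45), and Egfr at 43.9 and 34.1 against 88.9 and 72.6 CPM, lost in the same fits (0.31 and 0.11). Ednra, the endothelin A receptor, was at 824 and 899.5 against 71.4 and 138 CPM (log2 fold change 2.98 ± 0.35, edgeR adjusted p 1.9e-06). Its relative Ednrb was at 295 and 390.4 against 129 and 295 CPM without a call (0.36), and the ligand Edn3 was at 129.9 and 74.3 against 220.1 and 194.6 CPM. The call of Edn3 was lost without CD106- library 1 (0.22), CD106- library 2 (0.14) or CD106+ library 2 (0.090). Agtr2, an angiotensin II receptor, was at 15.8 and 25.9 against 2.31 and 1.33 CPM, and Pth1r, the receptor of parathyroid hormone-related protein, at 13.0 and 28.7 against 0.769 and 3.66 CPM. The ligand of the latter, Pthlh, was at 1.40 and 2.80 against 6.35 and 5.16 CPM and was not called (0.27). Hgf, hepatocyte growth factor, was at 2.21 and 2.66 against 0.577 and 0 CPM, also without a call (0.11).

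**Figure D5:**
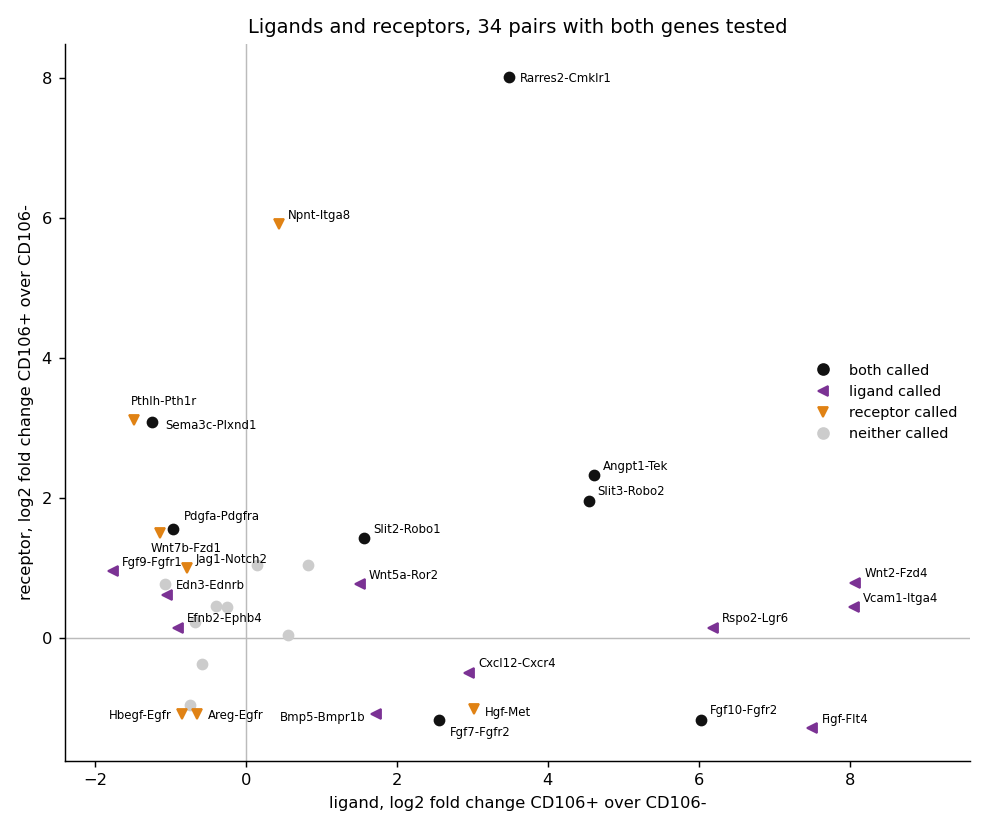
Log2 fold change of CD106+ over CD106- for the ligand (x axis) and receptor (y axis) of the 34 pairs with both genes tested; colour and shape show which of them edgeR called. Fgf10 and Fgf7 with Fgfr2 lie at the lower right, Rarres2 with Cmklr1 at the top, and Angpt1 with Tek and Slit3 with Robo2 in the upper right.

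Transcription factors of the mesenchyme were higher for 20 of 44 tested and lower for 3 (median 0.905), with 17 to 21 higher and 0 to 8 lower when a library was left out, 8 of them without CD106+ library 1. Prrx1, a homeobox factor of limb and body wall mesenchyme, was at 23.1 and 41.6 against 2.89 and 3.00 CPM (log2 fold change 3.39 ± 0.49, edgeR adjusted p 1.9e-05). Tbx2 was at 57.9 and 147 against 4.42 and 9.16 CPM, and Zeb2, a repressor of E-cadherin, was at 2182.2 and 1717 against 157 and 322 CPM. Nr2f2, an orphan nuclear receptor of mesenchyme and veins, was at 190.5 and 241 against 49.6 and 58.3 CPM. Tbx4 and Tbx5, which act in lung bud formation and are named after their values were seen, were at 158 and 368 against 19.4 and 39.5 CPM, and at 432 and 489 against 58.9 and 125 CPM. None of these 6 calls was lost in a leave-one-out fit, which says little of the other list members. The 3 lower genes, Foxp1, Foxp2 and Gata6, are shared with lung epithelium. They lost their calls without CD106- library 1 (0.19, 0.28 and 0.26) or 2 (0.34, 0.29 and 0.38), and Gata6 also without CD106+ library 2 (0.18).

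Hox genes give position along the body axis. Of 36 list members 12 passed the filter on low counts and 24 were not tested; 17 of the 36 were at 0 in both CD106- libraries and 19 at 0 in both CD106+ libraries. Among the 12 tested 10 were higher, with 6 to 9 when a library was left out, and a gene such as Hoxa4 passed the filter through the CD106+ libraries alone. The list summed to 244 and 295 CPM in CD106+ against 26.2 and 38.3 CPM in CD106- libraries. Hoxa5, required for lung development, was at 71.8 and 66.9 against 6.35 and 7.49 CPM (log2 fold change 3.28 ± 0.37, edgeR adjusted p 5.4e-07). Hoxa2 was at 21.5 and 25.8 against 0.385 and 0.999 CPM. Hoxb5 was at 33.7 and 77.5 against 5.00 and 7.66 CPM. Hoxa4 was at 4.81 and 4.77 CPM with no count in CD106- libraries, at least 17.9-fold higher, or 8.90-fold with the floor of 3 counts in each library. These 4 genes kept their calls and, like every called gene, did not overlap between the fractions. The 2 not called were Hoxa7, at 2.21 and 2.52 against 0.962 and 0.333 CPM (0.33), and Hoxb8, at 1.80 and 1.96 against 0.385 and 0.167 CPM (0.17).

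Epithelial transcription factors had 12 of 28 lower and 2 higher (median -0.896). Foxa1, a pioneer factor of endoderm, was at 44.9 and 38.0 against 114 and 97.5 CPM (log2 fold change -1.39 ± 0.29, edgeR adjusted p 0.0016), a call lost without CD106- library 1 (0.061). Sox9, a factor of distal tip epithelium and cartilage, was at 64.6 and 64.2 against 152 and 168 CPM, lost without CD106- library 2 (0.058). Grhl2, which maintains epithelial junctions, was at 60.4 and 63.5 against 131 and 127 CPM, lost without CD106- library 1 (0.13) or 2 (0.14). The 2 higher genes were Cebpd, a stress-responsive factor, at 30.8 and 37.3 against 7.01 and 6.05 CPM with its call kept, and Creb3l1, a factor of secretory and matrix-producing cells. Creb3l1 lost its call without CD106- library 1 (0.55), CD106- library 2 (0.22) or CD106+ library 2 (0.13). The lower count was 1 without CD106- library 1, 5 without CD106- library 2, 14 without CD106+ library 1 and 11 without CD106+ library 2.

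Genes of cell junctions were lower for 13 of 33 and higher for 3 (median -0.923), and those of ion and water transport lower for 8 of 17 (median -1.02). Ppl, the desmosomal protein periplakin, was at 74.2 and 64.5 against 174 and 188 CPM (log2 fold change -1.42 ± 0.27, edgeR adjusted p 0.00078), a call that was kept. Cftr, the chloride channel of fetal lung liquid secretion, was at 138 and 75.1 against 276 and 233 CPM, lost without CD106- library 1 (0.097). Scnn1g, a subunit of the sodium channel that clears lung liquid, was at 23.7 and 20.6 against 57.7 and 49.8 CPM, lost without CD106- library 1 (0.17) or 2 (0.079). Without CD106- library 1 edgeR called 1 junction gene and no transport gene lower, and without CD106- library 2 it called 1 and 2. It called 16 and 11 without CD106+ library 1, and 11 and 8 without CD106+ library 2. The 3 higher junction genes were Cdh11, Cdh2 and Prom1. Cdh11, the cadherin of mesenchyme, was at 1979 and 2244 against 98.1 and 190.3 CPM (3.81 ± 0.39, adjusted p 1.8e-07) and kept its call. Cdh2, N-cadherin, was at 42.7 and 15.8 against 7.89 and 10.3 CPM, lost without CD106- library 1 (0.23), CD106- library 2 (0.057) or CD106+ library 1 (0.40), and Prom1 was lost without CD106- library 1 (0.17), CD106- library 2 (0.56) or CD106+ library 2 (0.28).

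The glucocorticoid receptor, whose ligand is the subject of the series, was well counted in both fractions and not called. Its gene, Nr3c1, was at 318 and 308 CPM in CD106+ and at 221 and 284 CPM in CD106- libraries (log2 fold change 0.26 ± 0.28, edgeR adjusted p 0.71). Of 23 genes of its handling and response 3 were higher (13.0%, compared with 6.67% of all genes) and 2 lower (8.70%, compared with 3.35%), with a median of 0.263. The higher count was 5 without CD106+ library 1, and without either CD106- library the lower count was 0. Hsd11b1, which regenerates active glucocorticoid inside cells, was at 11.6 and 50.7 against 0.769 and 0 CPM (6.28 ± 0.96, adjusted p 0.0011) and kept its call. Angptl4 lost its call without CD106+ library 2 (0.13). Pdk4, a kinase that spares glucose, lost its call without CD106- library 1 (0.10), CD106- library 2 (0.15) or CD106+ library 1 (0.27). Both lower genes, the feedback inhibitor Errfi1 and the factor Klf9, lost theirs without CD106- library 1 (0.17 and 0.39) or 2 (0.36 and 0.087). The widely used response genes Fkbp5, at 12.6 and 35.5 against 15.4 and 15.8 CPM, and Tsc22d3, named with it after their values were seen, at 32.9 and 35.7 against 24.8 and 21.3 CPM, were not called (0.58 and 0.48).

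Few proliferation genes were called. Of 38 cell cycle genes edgeR called none higher and 1 lower (median 0.0624), below the background share. At an unadjusted p under 0.05 the counts were also 0 and 1, and DESeq2 called 0 and 1. Mki67, a marker of cycling cells, was at 3276 and 2215 against 3126 and 2800.2 CPM. The lower gene was Ccnd1, cyclin D1, at 125 and 104 against 268 and 207 CPM, lost without CD106- library 1 (0.29) or 2 (0.081). Of 33 immediate early and stress genes, which respond to cell handling, 1 was higher and 2 were lower, with 9 lower without CD106+ library 1 and 4 without CD106+ library 2. With all libraries these were 3.03% higher and 6.06% lower, compared with 6.67% and 3.35% of all genes tested. Atf3, a stress factor, was at 81.6 and 62.5 against 183 and 208 CPM (log2 fold change -1.48 ± 0.28, edgeR adjusted p 0.00071), a call that was kept. Egr2 lost its call without CD106- library 1 (0.095) or 2 (0.36), and Ier5 without CD106- library 1 (0.28), CD106- library 2 (0.14) or CD106+ library 2 (0.21).

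Lipid genes had 2 of 27 higher and 3 lower (median 0.103), and 5 and 6 without CD106+ library 1. With all libraries these were 7.41% higher and 11.1% lower, compared with 6.67% and 3.35% of all genes tested. The higher share was thus near that of all genes. Elovl6, which lengthens fatty acids, was at 76.0 and 66.3 against 16.7 and 16.8 CPM (log2 fold change 2.05 ± 0.33, edgeR adjusted p 8.7e-05), a call that was kept. Abca1, the cholesterol exporter, was at 217 and 227 against 51.6 and 77.6 CPM, lost without CD106- library 1 (0.066). The lower genes, Scd1, Chka and Lpcat1, serve fatty acid and surfactant lipid synthesis. They lost their calls without CD106- library 1 (0.13, 0.43 and 0.29) or 2 (0.32, 0.19 and 0.38). Imprinted genes had 4 of 26 higher (15.4%, compared with 6.67% of all genes) and 1 lower (3.85%, compared with 3.35%), with a median of -0.188. Without either CD106- library 2 were higher, and without CD106+ library 1, 9 were lower. Mest was at 628 and 604 against 195 and 121 CPM, lost without CD106- library 2 (0.068), Igf2r at 893 and 1439 against 317 and 417 CPM, lost without CD106- library 1 (0.27) or 2 (0.064), and Peg10 at 109 and 103 against 29.6 and 54.8 CPM, lost without CD106- library 1 (0.42). Dcn, decorin, was at 74.8 and 115 against 20.4 and 17.0 CPM and kept its call. The lower gene, Ppp1r9a, lost its call without CD106- library 1 (0.25) or 2 (0.29). Igf2, the ligand that Igf2r clears, was at 2039 and 1285 against 3507 and 2925 CPM and was not called (0.11).

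Promoters of the called genes were compared with all 7803 promoters of tested genes held in the table, over 250 bases before to 50 after the start. There were 452 for genes higher in CD106+ cells and 237 for genes lower there. A ratio of observed to expected CpG dinucleotides of 0.6 or more, a usual mark of CpG islands, was found in 54.9% of the former, 56.5% of the latter and 75.7% of all. The ETS letters CCGGAAGT stood in 1.33%, 0.844% and 8.78%, and the TATA letters in 9.96%, 10.5% and 6.88%. Whether the sides differed in these or the following motifs was not tested. The E-box CAGCTG was in 21.2% of the CD106+ promoters, 15.2% of the CD106- promoters and 14.2% of all. The AP-1 letters TGANTCA were in 4.42%, 8.02% and 4.17%. The CArG box, searched on both strands, was in 2.88%, 0.422% and 1.37%. The NKX2-1 letters were in 13.9%, 11.4% and 13.6%. These shares are descriptions of letters in a window, and whether a factor binds there was not tested.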

How the data were processed

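RNA of 2 CD106+ and 2 CD106- libraries from mouse lung at E18.5 was analysed from the deposited table of estimated counts per gene. Between 7.73% and 9.21% of the values in a library in the expected counts deposited by the authors were not whole. How these arose is not stated, and genes that share reads with near-identical or overlapping copies are uncertain. The submitters' processing notes name build mm10 and, without version or role, TopHat2, Bowtie2, Trim Galore, Partek, HOMER and MACS2. Which of these made the table, with which annotation and with or without strand, is not stated in the sources. Gene positions and promoters come from RefSeq GRCm38.p6, in which 24240 of 24371 genes were matched.

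Counts were rounded and genes with low counts removed by edgeR's filterByExpr, which left 12364 genes. The main test was edgeR's robust quasi-likelihood F test with TMM scaling and Benjamini-Hochberg adjustment, at 0.05, of CD106+ against CD106- without a covariate. Levels in the text are CPM, counts scaled to the same total, and log2 fold changes are edgeR's TMM-scaled ones. The script was tested on simulated data. The lists, pairs and members described were chosen with earlier results of these data known. Named are the 15 widest calls in each direction with a mean log2 CPM of 3 or more, up to 6 genes of each programme list by smallest p, any gene of a marker list or ligand-receptor pair, abundant genes, genes absent from 1 fraction and genes that differ most between replicates. Of the genes in the 44 lists and their aliases, 3 symbols were not matched. A fold against a fraction with no count is a bound from a floor of 3 counts over both libraries, which covers counting error only. Some list members are not reported here.

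Alternatives were other scalings (RLE, upper quartile, none), no filter or at least 5 CPM in 2 libraries, DESeq2, limma-voom, edgeR without robust estimation, a replicate block, each library left out, Rn45s, X and Y genes, or muscle, plasma and blood lists removed, a test against a log2 fold change of 1, promoters of 250 bases before the start alone, and a floor of 3 counts in each library. Tools were R 4.3.3, edgeR 4.0.16, limma 3.58.1, DESeq2 1.42.0, Python 3.11.15, pandas 2.3.3, numpy 2.4.6 and matplotlib 3.10.9.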

Additional observations from a re-analysis of the deposited data

How the results depend on the processing

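The total of 1239 calls ran from 546 to 2756 when each library was left out in turn, the calls higher in CD106+ cells from 464 to 1432, the calls lower there from 79 to 1324, and the share of calls that were higher from 52.0% to 88.5%. Over list and pair members the higher calls ran from 143 to 235 and the lower from 18 to 170. With 1 library left in a fraction, that library is assumed to vary like the other fraction. A test against a log2 fold change of 1 gave 457 calls, 439 higher (96.1%) and 18 lower, with 8 lower list and pair members. RLE scaling gave 1262 calls, upper quartile scaling 1244, no scaling beyond totals 1123, no filter 1468, at least 5 CPM 1158, DESeq2 1203, limma-voom 1291, edgeR without robust estimation 1221, removal of Rn45s 1223 and removal of X and Y genes 1171. None of the 1239 genes was called in the opposite direction under any of these alternatives. The muscle genes Myh7 and Ryr2, at 1.52 and 1.38 and not called with all libraries, were called lower without CD106+ library 1, which held most of the muscle transcripts (-1.01, edgeR adjusted p 0.02, and -1.99, 0.0055). Without CD106+ library 2 they were called higher (2.40, 2.6e-20, and 2.32, 1.8e-10). Libraries of the fractions share only a replicate number in their labels, and their deviations correlated at 0.0233. The digestive enzyme genes Ctrb1 and Amy2a5, given below, were counted almost only in library 2 of each fraction. Whether libraries of the same number came from a shared preparation was not tested. A fit with the replicate block gave 1276 calls, 855 higher and 421 lower. With the block the lower counts fell from 8 to 5 for alveolar type 2 markers, from 13 to 10 for pan-epithelial markers and from 8 to 5 for ion and water transport, and the higher counts rose from 2 to 4 for smooth muscle, from 1 to 5 for striated muscle and from 3 to 5 for glucocorticoid genes. The block ended the calls of Fgfr2 (edgeR adjusted p 0.12), Etv5 (0.16), Cdh1 (0.12), Nkx2-1 (0.11), Fras1 (0.16), Sdc4 (0.10), Tgfbr1 (0.096), Notch2 (0.08), Lpcat1 (0.079), Akap5 (0.065), Errfi1 (0.063), Foxp2 (0.053) and Ppp1r9a (0.053). Limma-voom did not call Cdh2 (0.12), Pdk4 (0.091), Rarres2 (0.10) or Rbp4 (0.081), and DESeq2 did not call Prom1 (0.075), Gata6 (0.068), Creb3l1 (0.067), Gprc5a (0.056) or Col4a6 (0.055). Without scaling beyond totals edgeR did not call Gprc5a (0.095), Prom1 (0.067), Col4a6 (0.065), Rnf43 (0.06), Col9a3 (0.054), Gata6 (0.053), Pdgfa (0.051) or Pdgfrb (0.051). Without robust estimation it did not call Tgfbr1 (0.057), Gata6 (0.056), Akap5 (0.054), Gprc5a (0.054), Fras1 (0.053), Sdc4 (0.052) or Prom1 (0.052). With Rn45s removed it did not call Gata6 (0.053) or Tgfbr1 (0.051), and with X and Y genes removed, neither of these (0.051 each). With upper quartile scaling it did not call Prom1 (0.061) or Creb3l1 (0.052), and with RLE scaling not Creb3l1 (0.051). Over the 250 bases before the start alone, the E-box share was 17.7% of CD106+ promoters, 10.1% of CD106- promoters and 11.1% of all. Totals of 4987175 to 7133941 counts leave genes with a few counts a library without a useful fold change.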

Other observations

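Transcripts of digestive enzymes appeared in the second library of each fraction. Ctrb1, chymotrypsinogen, was at 0 and 50.5 CPM in CD106+ libraries 1 and 2 and at 0 and 58.1 CPM in CD106- libraries 1 and 2. Amy2a5, pancreatic amylase, was at 0.602 and 35.8 CPM and at 0 and 104 CPM. Neither gene was called between the fractions. Xist, expressed from the inactive X chromosome, was between 4618 and 6961 CPM, and Ddx3y, on the Y chromosome, between 47.5 and 80.2 CPM, so every library held transcripts of both. The long noncoding RNA Malat1 had the highest count of all genes in the mean of either fraction. It was at 54001 and 26935 CPM in the CD106+ libraries. In the CD106- libraries it was at 44525 and 41074 CPM. Tbx20, Pln and Myom1, genes of heart and striated muscle, were at 116, 50.7 and 52.1 CPM in CD106+ library 1 and at 8.27, 3.78 and 4.07 CPM in CD106+ library 2.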
